A study of Mus musculus with 2 samples.

Results

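The cells described here are Atoh1- or Dll1-positive, mucin-low cells of the mouse colon epithelium, 794 of 9329 kept cells and of 27542 deposited barcodes. They were chosen by measured counts of unique molecular identifiers (UMIs, tags that count captured RNA molecules). Cells were kept from 5000 UMIs upward if no more than 25% of the UMIs were mitochondrial. A member had at least 1 UMI of Atoh1 or of Dll1, fewer than 20 Muc2 UMIs per 10000, at most 2 UMIs of Chga and Chgb together, and 0 UMIs of Trpm5 and of Lgr5. These limits set aside filled goblet cells, enteroendocrine cells, tuft cells and cells with detected Lgr5, the crypt base stem cell receptor. The counts of these 7 genes are therefore no finding.

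The study asked which cells of the colon epithelium descend from Kit-positive crypt cells, and holds 2 single-cell libraries, with 1 in each group. Cells of the first, called the whole-epithelium library after its label, were prepared from untreated c-Kit-creERT2 animals. Animals of genotype c-Kit-creERT2;Rosa26-mTG, given 1 intraperitoneal tamoxifen dose of 1 mg per 20 g, supplied the GFP library, and its cells were sorted for GFP, which marks cells that had an active, Kit-driven recombinase at the injection and the descendants of those cells. Both groups carry the Kit-driven creERT2, while tamoxifen, the reporter and the sort belong to the GFP group alone, and neither the time from injection to collection nor the number of animals per library is given in the sources used here. Lineage, sort, tamoxifen, animals and library preparation cannot be told apart in any difference between the libraries. The matrices and barcode lists are crossed in the deposited records. Each matrix was assigned to the sample whose barcode list has its number of cells, and every direction between libraries rests on that assignment.

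Secretory and absorptive fates in the gut are separated by Notch signalling between neighbouring cells. A crypt cell that escapes Notch activation turns on Atoh1, the transcription factor required for all secretory lineages, and shows the Notch ligands Dll1 and Dll4, which keep its neighbours absorptive through Hes1. Cells at this step then mature toward goblet cells, Reg4- and Kit-expressing deep crypt secretory cells, or enteroendocrine and tuft cells. In the GENCODE M21 annotation of GRCm38, the build named mm10 in the submitters' notes, Atoh1 (ENSMUSG00000073043) lies on the plus strand of chromosome 6 at 64729125 to 64731245. Dll1 (ENSMUSG00000014773) lies on the minus strand of chromosome 17 at 15367354 to 15376872. No sequence is shown, since the members are cells and no sequence carries a result.

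The whole-epithelium library held 444 members among 5366 kept cells, 8.27% (95% Clopper-Pearson interval 7.55 to 9.04). The GFP library held 350 among 3963, 8.83% (7.97 to 9.76), and the intervals overlap. The order turned when 2 or more UMIs of the markers were asked for, at 2.35% and 2.14%. The 13967 and 13575 deposited barcodes carried 164185392 and 150348319 UMIs, in that order, and the members alone 13077201 and 10987960. All intervals cover counting error only, neither animals nor preparation, and no difference between the libraries has a replicate check. Reference groups among the kept cells are unmarked cells (the same limits but 0 UMIs of Atoh1 and Dll1; 3510 and 2478 cells), Lgr5-detected cells (389 and 53), mucin-high cells (at least 20 Muc2 UMIs per 10000; 781 and 947), and colonocyte-rich cells, with at least 20 UMIs per 10000 of the absorptive genes Slc26a3, Aqp8, Car4, Krt20 and Cyp2c55 together. No barcode was a member in both libraries. The members' barcodes met the other library's deposited list in 7 cases, out of 60 barcodes deposited in both.

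Atoh1 alone marked 201 members (45.3%) of the whole-epithelium library and 219 (62.6%) of the GFP library. Dll1 alone marked 193 (43.5%) and 92 (26.3%), and both genes 50 (11.3%) and 39 (11.1%). Dll1 alone was thus more frequent among the members of the whole-epithelium library and Atoh1 alone among those of the GFP library. Dll1 was seen in 19.9% and 15.1% of the Atoh1-positive mucin-low cells without Lgr5, against 5.21% and 3.58% of the Atoh1-negative ones. Depth was not matched between these cells. All these shares are counts of genes that the rule used, so they describe the members and are no finding. Most members rested on very few molecules. A total of 318 members (71.6%) and 265 (75.7%) had 1 UMI of the pair together, and 126 (28.4%, 24.2 to 32.8) and 85 (24.3%, 19.9 to 29.1) had 2 or more. The highest Atoh1 count in a cell was 32 and 16 UMIs, and the highest Dll1 count 6 and 4.

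Detection was higher in deeper cells. Among mucin-low cells without Lgr5, members made up 7.36% of those with 5000 to 10000 UMIs and 16.4% of those with 40000 or more in the whole-epithelium library. The corresponding shares of the GFP library were 6.54% and 21.8%. Members had a median of 24966 and 26155.5 UMIs, against 21947 and 21089.5 in unmarked cells. Absorptive cells, which form without Atoh1, give a background of detection: 8.43% (7.03 to 10.0) and 7.53% (6.10 to 9.16) of the mucin-low colonocyte-rich cells had a UMI of either gene, at median depths of 17472 and 18619 UMIs. In mucin-low cells that were not colonocyte-rich the shares were 12.8% and 16.0%, at 24760 and 24216 UMIs. With every cell thinned to 5000 UMIs, they were 2.97% in colonocyte-rich and 3.78% in other cells of the whole-epithelium library, with intervals that overlap, and 1.74% and 4.94% in the GFP library, with intervals that do not. Without thinning, and so at unequal depth, 2 or more UMIs were found in 1.27% of colonocyte-rich and 4.25% of other cells of the whole-epithelium library. The shares in the GFP library were 0.744% and 4.69%. Thinned to 5000 UMIs, they were 0.283% and 1.14% in the whole-epithelium library, with intervals that do not overlap. In the GFP library they were 0.0827% (0.00209 to 0.460) and 0.803% (0.428 to 1.37), with intervals that do. In the whole-epithelium library, 6 of 76 T and NK cells (7.89%; median depth 7208.5 UMIs) also had a UMI, and mucin-high cells of the libraries had one in 78.4% and 77.3%. A name of progenitors does not hold for all members, since 26.8% and 26.0% of them were colonocyte-rich, so they are called by their markers here.

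**Figure D1:**
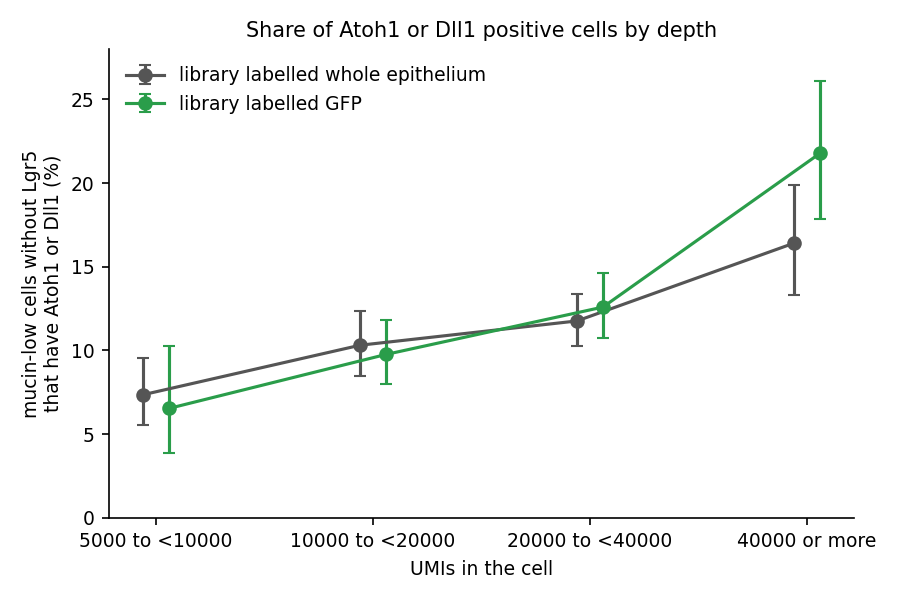
Share of mucin-low cells without Lgr5 UMIs that had a UMI of Atoh1 or Dll1 (y axis, percent) by the cell's UMI total (x axis, 4 depth classes) in each library; bars are exact 95% intervals for counting error. The share goes from 7.36% to 16.4% in the whole-epithelium library and from 6.54% to 21.8% in the GFP library.

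Members with 2 or more UMIs carried secretory genes far more often than members with 1 UMI, which lay closer to unmarked cells. Spdef, the transcription factor of goblet maturation, was detected in 3.79% of unmarked cells, 9.43% of 1-UMI members, 59.5% of members with 2 or more UMIs and 77.0% of mucin-high cells in the whole-epithelium library. The same series in the GFP library was 12.3%, 19.6%, 56.5% and 87.1%. Kit, the receptor whose locus drives the lineage label, was detected in 2.99%, 7.86%, 55.6% and 62.7%, and in 2.18%, 4.53%, 41.2% and 37.7%. For both genes and in both libraries, the intervals of members with 1 UMI and with 2 or more do not overlap. Dll4, the other secretory Notch ligand, was detected in 2.48%, 3.77%, 32.5% and 24.6%, and in 1.49%, 4.91%, 27.1% and 19.5%, so that members with 2 or more UMIs stood no lower than mucin-high cells. Gfi1, which acts downstream of Atoh1, reached 17.5% and 9.41% of members with 2 or more UMIs and 23.7% and 29.6% of mucin-high cells. Reg4, the deep crypt secretory marker, was detected in 18.9% and 37.7% of 1-UMI members and in 50.8% and 71.8% of members with 2 or more. Its shares were 13.7% and 34.7% in unmarked cells and 54.8% and 58.9% in mucin-high cells. In the GFP library, the interval of 1-UMI members (31.9 to 43.9) holds the unmarked share.

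Depth differed between these groups, at medians of 24116 and 24601 UMIs for 1-UMI members and 25090.5 and 34342 for the rest. After thinning to 5000 UMIs, Spdef was still found in 31.0% of members with 2 or more UMIs, against 3.46% of 1-UMI members and 1.31% of unmarked cells, in the whole-epithelium library. Thinned shares in the GFP library were 20.0%, 3.77% and 3.11%. Thinned Kit shares were 20.6%, 3.14% and 1.51%, and 8.24%, 0.755% and 0.323%. Thinned Dll4 shares were 12.7%, 0.629% and 0.427%, and 8.24%, 0.377% and 0.363%. Thinned Reg4 shares were 40.5%, 7.55% and 5.70%, and 47.1%, 13.2% and 10.9%.

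**Figure D2:**
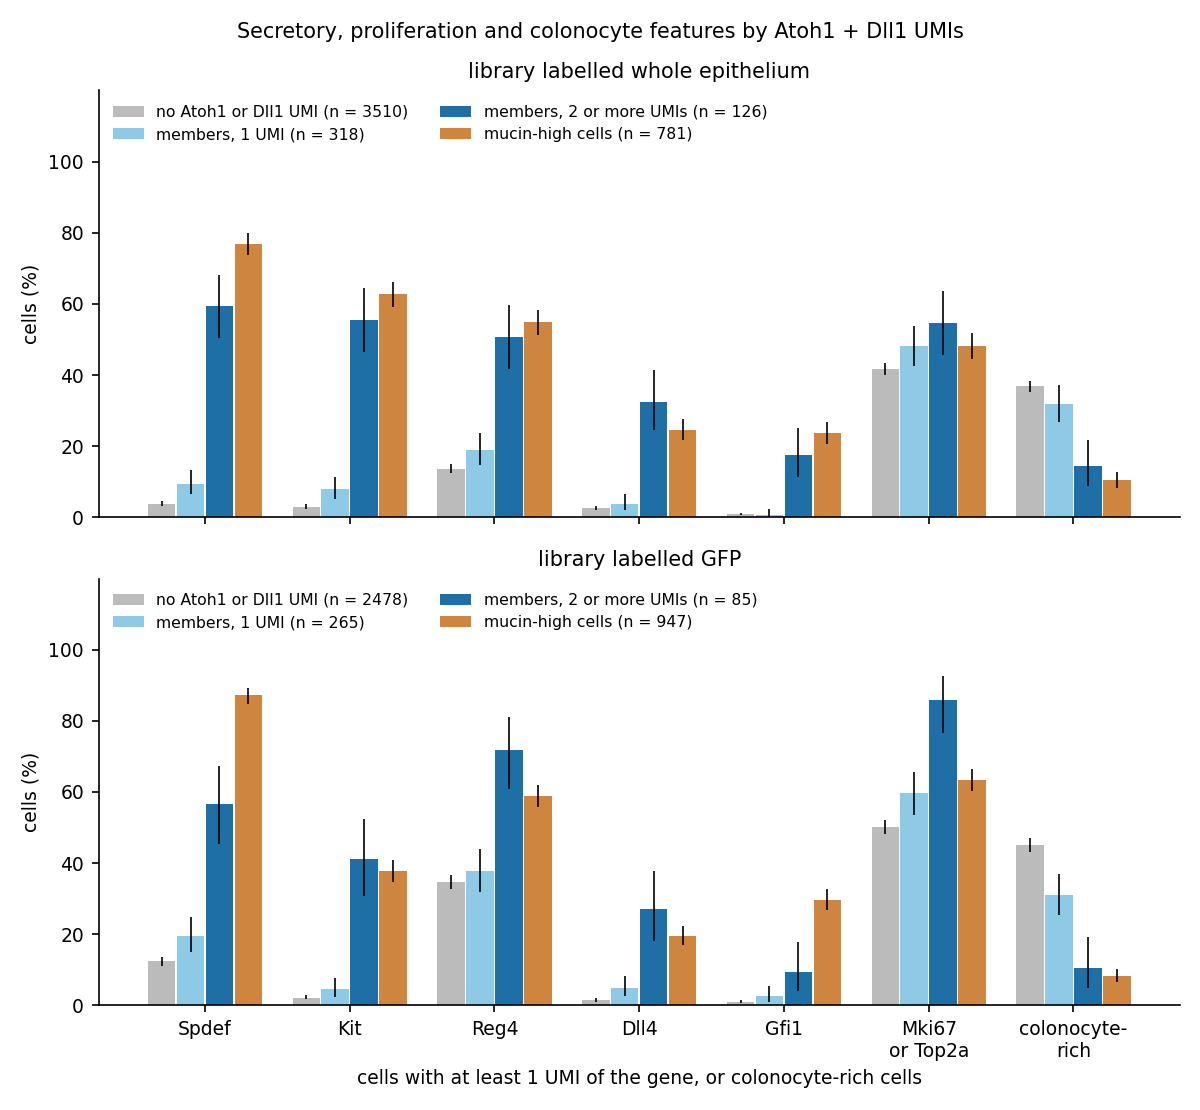
Percent of cells (y axis) with at least 1 UMI of each gene, or colonocyte-rich (x axis), in unmarked cells, members with 1 UMI, members with 2 or more UMIs of Atoh1 and Dll1 together, and mucin-high cells of each library; bars are shares and lines exact 95% intervals for counting error. Spdef is at 9.43% and 19.6% in 1-UMI members and at 59.5% and 56.5% in members with 2 or more.

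Summed UMIs were compared across genes as well. Here a gene is called where its summed counts, scaled to a common total of 1000000 UMIs (CPM), differ at least 2-fold, the exact 95% interval of the ratio excludes 1 and the groups hold at least 50 of its UMIs, in both libraries. Members with 2 or more UMIs were called higher than 1-UMI members for 114 of 9339 genes (1.22%) and lower for 88 (0.942%). Of the goblet products, 15 of 18 were called higher, with a median log2 ratio of 3.23 in the whole-epithelium library and 1.48 in the GFP library, beside 0.02 and 0.10 over all genes. Deep crypt secretory genes were called higher in 5 of 8, and secretory transcription factors in 5 of 11 (Spdef, Foxa2, Foxa3, Creb3l1 and Creb3l4). Colonocyte genes were called lower in 10 of 20, among them the carbonic anhydrases Car1 and Car4 and the surface keratin Krt20, with medians of -1.02 and -1.30. Against unmarked cells, 1-UMI members were called higher for 3 of 11458 genes (0.0262%), Hpd, Cbfa2t3 and Ltc4s, and lower for 3 (0.0262%), Rarres2, Igfbp6 and H2-M2, all 6 named after their values were seen. No goblet product among 18 was called in 1-UMI members, though their median ratio was 0.97 and 0.34 beside 0.02 and 0.09 over all genes. These members were chosen by counts of the same cells, so the ratios describe the groups and test nothing.

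All members together were called higher than unmarked cells for 87 of 11544 genes (0.754%) and lower for 7 (0.0606%). Goblet products made up 11 of these calls out of 20 considered, deep crypt secretory genes 6 of 9, and secretory transcription factors 4 of 11. Reg4 stood at 164 CPM in members and 10.6 CPM in unmarked cells of the whole-epithelium library (log2 ratio 3.95, 3.84 to 4.07). In the GFP library it stood at 140 and 19.8 CPM (2.83, 2.72 to 2.94). Members with 2 or more UMIs held most of it, at 485 and 369 CPM, against 22.8 and 38.2 CPM in 1-UMI members. Lgr5-detected cells had 43.1 and 184 CPM of Reg4, above the members in the GFP library. Cd24a, also called higher than in unmarked cells, measured 156 and 134 CPM in members and 289 and 349 CPM in Lgr5-detected cells.

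Spdef measured 29.2 CPM in members and 1.67 CPM in unmarked cells of the whole-epithelium library, and 23.8 and 5.87 CPM in the GFP library (log2 ratios 4.13 and 2.02). Creb3l4, a membrane-bound transcription factor of the secretory pathway, had ratios of 3.19 and 1.95, and its relative Creb3l1 had 1.11 and 1.18. Creb3l1 was not particular to members, at 147 and 158 CPM in members and 114 and 198 CPM in Lgr5-detected cells. Foxa3, a goblet cell factor, had 1.86 and 1.29. Gfi1 had 2.54 (1.81 to 3.27) and 1.88 (0.87 to 2.85), and was not considered in the GFP library, where it fell short of the minimum of 50 UMIs. Sox9 and Sox4, factors of crypt progenitors, were not called, at 0.40 and 0.75 for Sox9 and 0.77 and 0.90 for Sox4. Over all members, none of 12 factors was called between the libraries, a count that includes Atoh1, which the rule used.

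Tff3, the goblet trefoil peptide, measured 513 and 407 CPM in members and 44.4 and 84.6 CPM in unmarked cells (3.53 and 2.27). Agr2, the disulfide isomerase that folds mucin, measured 1549 and 1642 CPM against 255 and 560 CPM (2.61 and 1.55). Lgr5-detected cells had 78.7 and 193 CPM of Tff3 and 649 and 1593 CPM of Agr2. Best2, an ion channel of colonic goblet cells, had ratios of 5.04 and 3.45, and Ramp1, a receptor activity-modifying protein, 4.14 and 2.33. The peptide Spink4 had 3.75 and 1.74, although 1 member of the whole-epithelium library held 2835 of the 13948 Spink4 UMIs in members. Mptx1, a mucosal pentraxin, had 4.36 and 1.40, Sval1 4.26 and 2.30, and Ccl6 3.18 and 1.68. The goblet list had a median of 2.69 and 1.05, beside 0.04 and 0.14 over all genes.

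**Figure D3:**
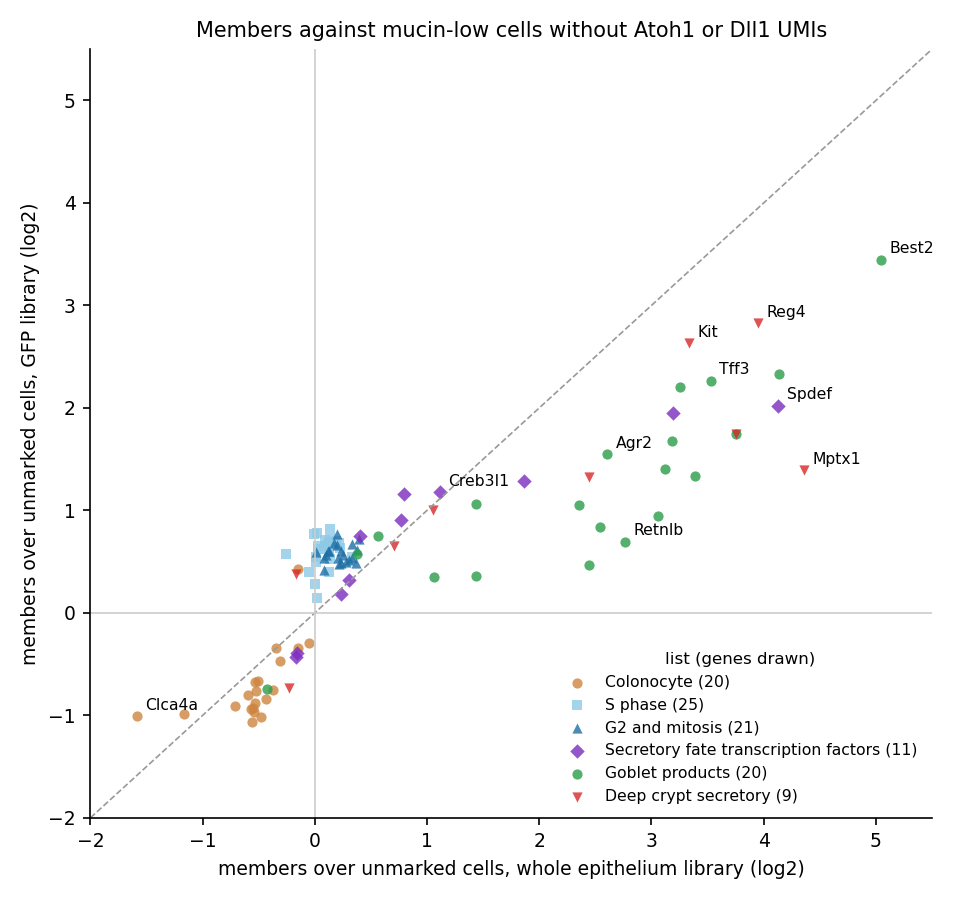
Log2 ratio of summed CPM, members over unmarked cells, in the whole-epithelium library (x axis) and in the GFP library (y axis); each point is a gene of the list in the key, and the dashed line marks equal ratios. Goblet and deep crypt secretory genes reach 5.04 and 3.45 (Best2), while S phase and mitosis genes lie between 0 and 1 on the y axis.

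Background levels of the secretory products differed between the libraries and touch these ratios. Unmarked cells of the GFP library held more Agr2, Tff3 and Spink4 than those of the whole-epithelium library (269 against 79.0 CPM for Spink4). Retnlb, an antibacterial goblet product, was found in every member of the GFP library, at 1005 CPM in 1-UMI members and 2498 CPM in members with 2 or more. Its level was 955 CPM in colonocyte-rich unmarked cells and 28525 CPM in mucin-high cells of that library. The part of RNA outside cells in these levels was not tested.

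The machinery that folds and glycosylates mucin was considered next. Ern2, the goblet stress sensor of the endoplasmic reticulum, had ratios of 1.91 and 1.20 and the disulfide isomerase Pdia5 1.86 and 1.51, and these were the 2 called among 23 endoplasmic reticulum genes, where 0.754% of all genes were called. In both libraries 20 of the 23 had a ratio above 0, with medians of 0.24 and 0.35 beside 0.04 and 0.14 over all genes. Galnt5, which starts mucin O-glycans, had 2.12 and 1.35 and was the 1 called among 15 glycosylation genes.

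The Notch pathway was described by its ligands, receptors and targets, lists too short to read a count of 0 against the 0.754% called over all genes. Dll4 measured 6.42 and 4.82 CPM in members and 1.07 and 0.61 CPM in unmarked cells (log2 ratios 2.58, 2.14 to 3.02, and 2.98, 2.35 to 3.63), and was the 1 called of 6 ligands and modifiers once Dll1 was left out. Lfng, a sugar transferase that modifies Notch, measured 7.26 and 7.66 CPM in members with 2 or more UMIs and 1.54 and 1.45 CPM in 1-UMI members, with too few UMIs for a call. None of the 11 receptor and signalling genes was called, with medians of -0.07 and -0.01, and Notch1 measured 19.8 and 20.7 CPM in members and 16.5 and 14.3 CPM in unmarked cells. None of the 5 targets was called either. Hes1, the repressor that Notch induces, was detected in 78.6% and 82.3% of members and measured 257 and 199 CPM, against 251 and 159 CPM in unmarked cells. Members with 2 or more UMIs had 213.97 and 244.37 CPM of Hes1 and 1-UMI members 276.28 and 178.88 CPM, so the order of the groups was opposite in the libraries. Hes6, which counteracts Hes1, was called higher in members with 2 or more UMIs, at 121 and 96.9 CPM against 41.8 and 44.8 CPM.

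Members were also divided by Muc2, a value that the rule used. Unmarked cells had a median of 1.26 Muc2 UMIs per 10000 in the whole-epithelium library and 5.08 in the GFP library. The border at 5 thus lay above that median in the first and close to it in the second, so a band does not mean the same in both libraries. The 331 members under 5 Muc2 UMIs per 10000 in the whole-epithelium library had 622 CPM of Agr2, the 39 between 5 and 10 had 3071 CPM, the 74 between 10 and 20 had 5221 CPM, and mucin-high cells had 8710 CPM. In the GFP library, 160, 116 and 74 members gave 777, 1806 and 3884 CPM, and mucin-high cells gave 8644 CPM. Tff3 took the values 257, 1236, 1427 and 1589 CPM, and 88.7, 498, 1189 and 1642 CPM. Both genes were higher at each step in both libraries. Others did not climb at each step in the whole-epithelium library, where Mptx1 had 177, 8108 and 7470 CPM and Kit 8.13, 54.6 and 41.3 CPM in the member bands. Cells close to the Muc2 limit, with at least 1 UMI of Atoh1 or Dll1, were also compared. The 36 and 29 cells just inside it (15 to 20 per 10000) had 112 and 93.5 CPM of Spdef. The 27 and 20 cells just outside (20 to 25) had 84.2 and 70.6 CPM. Agr2 measured 6340 and 5610 CPM inside and 4627 and 5773 CPM outside, and Tff3 1251 and 1270 CPM inside and 4154 and 1164 CPM outside. Across the limit itself, none of these genes climbed in both libraries.

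**Figure D4:**
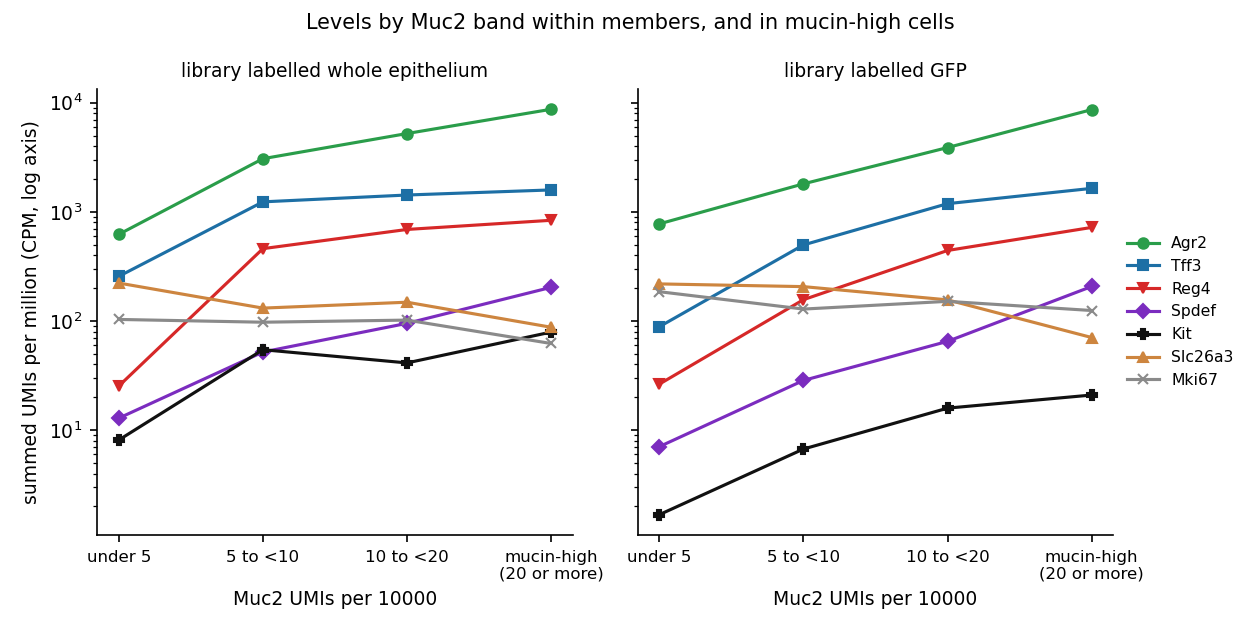
Summed CPM of 7 genes (y axis, log axis) in members by Muc2 UMIs per 10000 and in mucin-high cells (x axis), in each library. Agr2 goes from 622 to 8710 CPM and from 777 to 8644 CPM, and Tff3 from 257 to 1589 CPM and from 88.7 to 1642 CPM.

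Proliferation genes and colonocyte genes were counted together in each member. A UMI of the proliferation genes Mki67 or Top2a was found in 50.0% of the members of the whole-epithelium library and in 66.0% of those of the GFP library, against 41.8% and 50.1% of unmarked cells. Even among colonocyte-rich unmarked cells, 225 of 1293 and 323 of 1118 had such a UMI, so 1 UMI alone does not show a dividing cell. Members with such a UMI are called cycling for short. Those that were not colonocyte-rich made up 43.2% and 57.1%, members that were neither 30.0% and 16.9%, and colonocyte-rich members without either gene 20.0% and 17.1%. Among members with 2 or more UMIs, 54.8% (45.7 to 63.6) and 85.9% (76.6 to 92.5) had a Mki67 or Top2a UMI, with intervals that do not overlap. Thinned to 5000 UMIs, these shares were 30.2% and 57.6%, and those of 1-UMI members were 30.5% and 35.8%. The summed level of 21 mitosis genes in members with 2 or more UMIs was 1356 CPM in the whole-epithelium library, below the 1625 CPM of 1-UMI members, and 2777 CPM in the GFP library, above the 1859 CPM. All 21 had higher CPM in members of the GFP library, with none called (median log2 0.55). Of 25 S phase genes none was called, with a median of -0.13.

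Members differed from Lgr5-detected cells in stem and absorptive genes. In the whole-epithelium library, 72.2% of Lgr5-detected cells had a Mki67 or Top2a UMI, 93.3% had Sox9 and 5.91% were colonocyte-rich, against 50.0%, 63.5% and 26.8% of members. Smoc2, a crypt base stem cell gene, measured 15.5 and 18.7 CPM in members, 8.64 and 8.39 CPM in unmarked cells and 109.55 and 121.13 CPM in Lgr5-detected cells. Ascl2, the stem cell transcription factor, measured 6.35 and 6.01 CPM in members, 4.57 and 3.59 CPM in unmarked cells and 52.27 and 51.91 CPM in Lgr5-detected cells. Members thus lay above unmarked cells and below Lgr5-detected cells for both genes, and of 15 stem and Wnt feedback genes only Mex3a was called against unmarked cells (1.41 and 1.06). Spdef went the other way, found in 23.6% of members and 8.74% of Lgr5-detected cells of the whole-epithelium library, but in 9.43% of its 1-UMI members. Kit was found there in 21.4% of members and 19.5% of Lgr5-detected cells, and Reg4 in 27.9% and 18.3%. In the GFP library Spdef was found in 28.6% of members and 18.9% of Lgr5-detected cells. Kit was found there in 13.4% and 20.8%, and Reg4 in 46.0% and 64.2%, so not every secretory gene was more frequent in members. The Lgr5-detected cells of the GFP library numbered 53 and carry wide intervals.

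Colonocyte genes were lower in members than in unmarked cells in 19 of 20 in both libraries, with medians of -0.53 and -0.82 and Fabp6 as the exception, and Clca4a alone was called in both. Slc26a3, the chloride exchanger of surface colonocytes, measured 204.86 and 203.77 CPM in members and 300.88 and 387.10 CPM in unmarked cells. Clca4a measured 20.3 and 76.5 CPM in members and 60.7 and 153.8 CPM in unmarked cells (-1.58 and -1.01). Colonocyte-rich cells made up 31.8% and 30.9% of 1-UMI members and 14.3% and 10.6% of members with 2 or more UMIs.

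The classes by marker were not alike. In the whole-epithelium library, Spdef was detected in 27.9% of members with Atoh1 alone, 6.74% of those with Dll1 alone and 72.0% of those with both. In the GFP library the shares were 27.9%, 20.7% and 51.3%. Kit was detected in 23.9%, 6.74% and 68.0%, and in 11.0%, 8.70% and 38.5%. Dll4 was detected in 11.4%, 3.63% and 46.0%, and in 7.76%, 8.70% and 28.2%. Members with both genes had the highest share of each in both libraries, and members with Dll1 alone had the lowest share of each in the whole-epithelium library, where 31.6% of them were colonocyte-rich. Members with both genes have at least 2 UMIs by construction.

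Between the libraries, members of the GFP library were called higher for 252 of 10700 genes (2.36%) and lower for 345 (3.22%), with the call made on the 1 ratio between libraries and a median of 0.07 over all genes. All 20 genes named by rank here differed in the same direction in unmarked cells, and whether the size of the difference was particular to members was not tested. Ang4 had the highest ratio of the 10 genes ranked on the higher side. This antimicrobial ribonuclease of secretory cells measured 4.59 CPM in members of the whole-epithelium library and 247.7 CPM in those of the GFP library (log2 5.75, 5.39 to 6.15; unmarked cells 7.06). Retnlb measured 119.5 and 1466 CPM (3.62), but 1 member of the whole-epithelium library held 1143 of the 1563 Retnlb UMIs in members. Without the member with most UMIs in each library its levels were 32.2 and 1406 CPM (5.45). Nox1, the NADPH oxidase of the colon epithelium, measured 6.04 and 65.6 CPM (3.44; unmarked 2.78), and Pla2g4c, Ceacam10, Cd177, Plet1, Lpo and Ckb had ratios of 2.62 to 5.31.

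Antigen presentation genes of MHC class II were also higher. Of 7 genes of MHC class II, 6 were called higher, with a median of 2.19. H2-Aa measured 59.4 and 371.9 CPM (2.65; unmarked 2.38), and Cd74, its invariant chain, 330.6 and 1315 CPM (1.99). Their transactivator Ciita measured 10.32 and 18.02 CPM and was not called (0.80, 0.48 to 1.13).

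Interferon-induced genes stood on the lower side, with 13 of 23 called and a median of -1.17. Ifi27l2b measured 496.1 CPM in members of the whole-epithelium library and 29.4 CPM in those of the GFP library (-4.08; unmarked -4.15). Ifit2 measured 58.4 and 9.28 CPM (-2.65; unmarked -2.83), and the antiviral gene Rsad2 had -2.50. Reg3b, an antibacterial lectin, measured 9199 and 1240 CPM (-2.89; unmarked -2.90). Fabp6, a bile acid binding protein, measured 225.9 and 41.4 CPM (-2.45; unmarked -3.02), with -1.69 at no more than 10% mitochondrial UMIs and -1.18 in members with 2 or more UMIs. The bile acid transporter subunit Slc51a had -2.51. S100g, a calcium-binding protein, measured 53.8 and 7.28 CPM (-2.89), with -1.17 at no more than 10% mitochondrial UMIs and -1.02 in members with 2 or more UMIs. Slfn4, 2210407C18Rik and Edn1 had ratios of -2.71 to -2.18. Immediate early and heat shock genes had a median of -0.80, with 4 of 22 called lower, Atf3, Klf2, Nr4a1 and Dusp1.

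Kit was lower in members of the GFP library, at 16.5 and 5.73 CPM (-1.53, -1.96 to -1.12). The difference held in members with 2 or more UMIs, at 45.3 and 14.4 CPM, and in mucin-high cells, at 79.2 and 21.0 CPM. Kit (ENSMUSG00000005672) lies on the plus strand of chromosome 5 at 75574916 to 75656722, and both groups carry the creERT2 driven by it. Among the other deep crypt secretory genes, Areg, an EGF receptor ligand, had -1.26 and Capn9 1.09. Reg4 had -0.23 over all members, a value that differed with cycling. In members with a Mki67 or Top2a UMI it measured 130.4 and 176.3 CPM, and in the others 216.4 and 33.3 CPM (-2.70). Without the cycling members, Kit had -2.59, Tff3 -1.62 and Spdef -1.38, where all members gave -1.53, -0.33 and -0.29. The members left differed in make-up between the libraries. Of the 222 and 119 without a Mki67 or Top2a UMI, 89 and 60 were colonocyte-rich. Of the 126 and 85 members with 2 or more UMIs of the markers, 69 and 73 were cycling and so left out. The part of this make-up in the ratios was not tested. Goblet products were called higher in 6 of 21 and lower in 1, Ccl6 (-1.06). The 21 include Muc2, which the rule limits. The EGF receptor ligand Hbegf measured 554.93 and 221.97 CPM (-1.32), and Ereg had 53 UMIs against 1 (-5.48, -10.81 to -2.94).

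**Figure D5:**
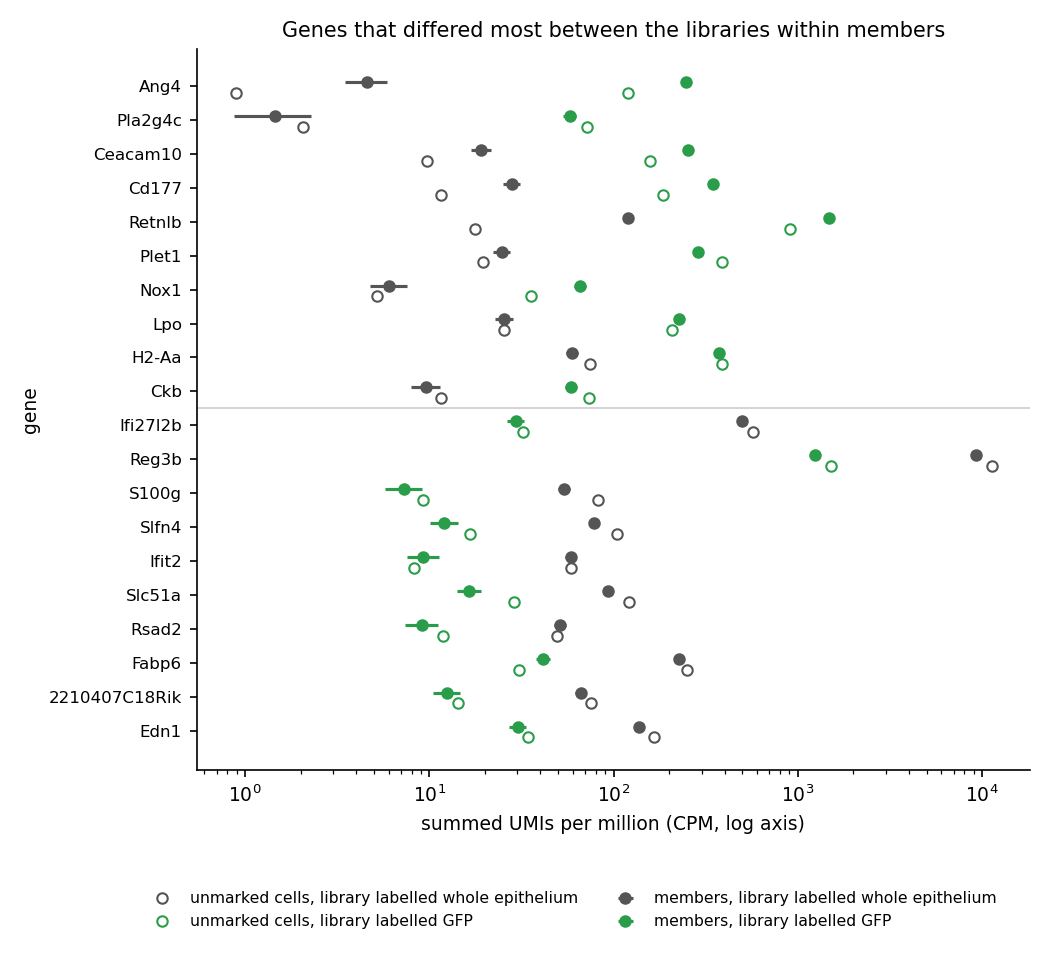
Summed CPM (x axis, log axis) of the 10 genes highest and the 10 lowest in the GFP library within members (y axis); filled points are members with Poisson 95% intervals, open points unmarked cells of the same library. The libraries lie apart, as for Reg3b (9199 and 1240 CPM in members, 11287 and 1511 CPM in unmarked cells). Members and unmarked cells of a library do not lie close together for every gene. In the whole-epithelium library, Retnlb is at 119.5 CPM in members and 17.6 CPM in unmarked cells, and Ang4 at 4.59 and 0.898 CPM. There, 1 member held 1143 of the members' 1563 Retnlb UMIs, and 1 member held 22 of their 60 Ang4 UMIs. Without the member with most UMIs, the levels were 32.2 CPM for Retnlb and 2.92 CPM for Ang4.

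All 20 colonocyte genes were detected in members of both libraries, with summed levels of 14989 and 14270 CPM, while markers of other cell types were low but differed between the libraries. The summed level of 12 T and NK markers was 28.3 and 1.18 CPM in members and 121 and 1.96 CPM in unmarked cells, and that of 16 other non-epithelial markers 19.4 and 1.09 CPM against 421 and 8.14 CPM. Of the latter, 183 of the 185 Dcn UMIs in members of the whole-epithelium library lay in 1 member. The macrophage receptor Csf1r, the B cell gene Ms4a1 and the endothelial Cdh5 were at 0 UMIs in members of both libraries, and Trac, the T cell receptor chain, at 0 in those of the GFP library. Summed tuft markers measured 3.36 and 5.46 CPM, and enteroendocrine products 94.7 and 39.2 CPM. The part of these cells in the differences between libraries was not tested.

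Enteroendocrine commitment was rare under this rule, which itself removes cells with more than 2 UMIs of Chga and Chgb. Neurog3, the factor that starts the enteroendocrine lineage, was detected in 3 of 444 and 1 of 350 members. In the whole-epithelium library 1 member held 47 of the 50 Neurog3 UMIs in members, and in the GFP library 1 member held all 14. The peptide gene Gcg had 600 UMIs in members of the whole-epithelium library, of which 1 member held 566. Its ratio between libraries was -3.39 with that member and 0.30 without the member with most UMIs in each library. Of 7 enteroendocrine products considered, 2 were called lower in the GFP library, and Cck, the other, had 43 of its 51 UMIs in 1 member. The 7 include at least 1 of Chga and Chgb, which the rule limits.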

How the data were processed

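Droplet-based single-cell RNA libraries of colon epithelial cells were counted by the authors with Cell Ranger against mm10. The submitters' processing notes give version 2.1.1, the matrix headers 3.1.0. The deposited values are raw UMI counts per gene and barcode, with no normalisation. Settings of cell calling are not given in the sources used here.

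Here counts were read with Python 3.11.15, numpy 2.4.6, scipy 1.17.1 and pandas 2.3.3, and plotted with matplotlib 3.10.9. No barcode was removed as a doublet. UMIs were summed over the cells of a group and scaled to CPM. Shares carry Clopper-Pearson, sums Poisson and log2 ratios conditional binomial intervals, all at 95%, exact and for counting error only. With 1 library per group no p-value was computed. Ratios were called at 2-fold with the interval excluding 1 and at least 50 UMIs, and the calls were tested on simulated counts. These were Poisson draws of summed counts, as the intervals assume. The simulation therefore does not cover genes with most UMIs in 1 cell. Named genes are those of the lists, and the 10 highest and 10 lowest called between libraries or up to 15 each way against unmarked cells (at least 50 CPM and 10% of members). The limits left 11 higher and 1 lower against unmarked cells. Mitochondrial, ribosomal protein and sex-linked genes were left out of these ranks. Members and gene lists were chosen with earlier results of these data known. Thinning drew 5000 UMIs from each cell at random. Alternatives changed the cell limits, the marker rule, the gene minimum, the fold, the scaling and the weight of cells.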

Additional observations from a re-analysis of the deposited data

Results flagged for a closer look

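Cd52, a small surface glycoprotein, differed from unmarked cells in opposite directions in the libraries, and it was the 1 gene called so, named after its values were seen. In the whole-epithelium library its log2 ratio of members over unmarked cells was -2.50, from 2.22 and 12.5 CPM. In the GFP library it was 1.79, from 2.28 and 0.659 CPM. Summed T and NK markers stood at 121 and 1.96 CPM in unmarked cells of these libraries, in that order, and at 28.3 and 1.18 CPM in members, and other non-epithelial markers at 421 and 8.14 CPM against 19.4 and 1.09 CPM. Their part in the Cd52 values was not tested. The difference between the libraries was not tested.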

How the results depend on the processing

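No paired analysis was possible because each group has 1 library. The member share (whole-epithelium and GFP library) was 6.90% and 6.96% with Muc2 under 10 per 10000, 10.7% and 11.4% under 50, 2.35% and 2.14% with at least 2 UMIs of the markers, 4.68% and 6.51% with Atoh1 alone, 4.53% and 3.31% with Dll1 alone, and 2.74% and 2.52% in cells thinned to 5000 UMIs. In the GFP library it was 9.94% with at most 10% mitochondrial UMIs and 7.94% with at most 40000 UMIs. Which library had the higher share thus changed with the marker rule and with thinning.

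Calls between libraries were 82 higher and 124 lower in thinned cells, 109 and 163 for genes with at least 200 UMIs, 683 and 752 at 1.5-fold, and 102 and 134 at 3-fold. Genes with at least 20 UMIs gave 518 lower, and 156 were higher without cycling members.

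Calls against unmarked cells were 179 higher and 19 lower with Muc2 under 50, 318 and 234 with at least 2 UMIs, 152 and 17 with Atoh1 alone, 45 and 3 for genes with at least 200 UMIs, 239 and 73 at 1.5-fold, and 32 and 2 at 3-fold. With Muc2 under 10, 37 were higher. The lower calls were 11 from 3000 UMIs, 15 with at most 10% mitochondrial UMIs, 18 with Dll1 alone, 4 with at most 40000 UMIs, 4 with equal weight per cell, 4 in cycling cells and 14 for genes with at least 20 UMIs. The cause of these shifts was not tested.

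Of 576 gene values between libraries under an alternative, 547 kept their direction, and of 782 against unmarked cells 758 did. Both totals include the alternatives of gene minimum and of fold. These leave a gene's ratio unchanged, so their values could not change direction. Between libraries, the range over alternatives was 4.81 to 6.41 for Ang4, 2.25 to 6.36 for Retnlb, 3.69 to 5.97 for Pla2g4c, 1.32 to 3.03 for Ckb, 1.30 to 2.99 for H2-Aa, -5.06 to -1.99 for Ifit2, -4.16 to -2.36 for Reg3b, -3.50 to -1.18 for Fabp6 and -2.70 to 0.40 for Reg4. Depth is a limit, since 318 and 265 members rest on 1 UMI, for which detection in absorptive cells is the background. No doublets were removed, and nothing between the libraries has a replicate.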
